A study of Mus musculus with 82 samples.

Results

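Tumours of 2 mouse models of metastatic mammary cancer, 4T1 and MMTV-PYMT, were compared by bulk mRNA sequencing. The comparison takes every library whose title names either model: 5 libraries of 4T1 and 5 of MMTV-PYMT, 10 of the 82 libraries in the series, which covers 13 models. The 4T1 tumours are from BALB/c mice and the MMTV-PYMT tumours from FVB mice. All were untreated mammary tumours, and age, passage number and the site and manner of growth are not given in the sources used here. 4T1 is a transplantable cell line that goes back to 1 spontaneous tumour of a BALB/c mouse, so its tumours share an origin. MMTV-PYMT tumours arise in mice that carry the polyoma virus middle T antigen under the promoter of the mouse mammary tumour virus, which acts mainly in mammary epithelium. Whether the 5 MMTV-PYMT libraries come from separately arisen tumours is not given in the sources used here. Strain is confounded with model: each difference below is also one between a BALB/c and an FVB tumour, and the model's part and the strain's part cannot be told apart in this contrast. The middle T transgene itself was not analysed here.

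As background, both models spread to the lung, but they differ in how the tumours arise. Middle T antigen is a membrane protein that binds Src family kinases, phosphoinositide 3-kinase and Shc and so acts like an active growth factor receptor, and its early tumours keep a luminal, gland-like organisation. 4T1 is widely used as a model of triple-negative disease, carries no engineered oncogene, and is known for secreted G-CSF and a strong expansion of neutrophils in its hosts. A carcinoma can keep the junctions, keratins and transcription factors of the epithelium it came from, or shift towards filaments, matrix and proteases typical of mesenchymal cells, a shift called the epithelial-mesenchymal transition.

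The rounded expected counts of the 4T1 libraries summed to between 76706910 and 108636284 and those of the MMTV-PYMT libraries to between 39726259 and 73413205, with no overlap, and the library numbers in the titles do not overlap either. Depth, library number and model therefore cannot be told apart, and a fit on counts thinned to the smallest total is given in the closing section. The 4T1 libraries resembled each other closely (Pearson's r of log2 CPM across tested genes at least 0.991 for each pair), whereas r between MMTV-PYMT libraries fell to as low as 0.943. The median coefficient of variation over genes with a mean of at least 5 CPM was 0.095 among 4T1 libraries and 0.219 among MMTV-PYMT libraries. MMTV-PYMT replicate 5 stands apart: its most similar library in the series is one of MMTV-NEU, although its Erbb2 level, 68.8 CPM, is far from the MMTV-NEU mean of 11948 CPM. Nothing in the labels ties the libraries of a model to separate animals, so the p-values reflect variation between the sequenced samples, part of which may be technical. The spread behind them was estimated within models over all 82 libraries, not from the 10 compared here alone. CPM is the usual library-size-scaled count, after TMM scaling between libraries, and values for 5 libraries are given in the order of replicates 1 to 5, an order without meaning.

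Both sets of libraries carried simple-epithelial keratins, which fits the labelled tissue. Krt8 was at 845 to 1029 CPM in the 4T1 libraries and at 582 to 1005 CPM in the MMTV-PYMT libraries, and Krt18 at 969.9 to 1190.4 and 426 to 1124 CPM, with overlapping groups. Markers of other cells moved with the models. The summed level of 18 fibroblast and collagen genes was 6805 to 10560 CPM in the 4T1 libraries and 268.4 to 5684 CPM in the MMTV-PYMT libraries, and that of 18 macrophage genes 5205 to 9253 and 712.5 to 3525 CPM. Skeletal muscle genes (12 genes, 12 tested) summed to 4327 CPM in MMTV-PYMT replicate 5 and 705.9 CPM in replicate 3 but to between 3.207 and 4.314 CPM in the other 3, with 25.95 to 300.5 CPM in the 4T1 libraries. The 10 adipocyte genes summed to 790.1 CPM in MMTV-PYMT replicate 5 and to at most 143.3 CPM in any of the other 9 libraries. Adipoq, a hormone of fat cells, was at 40.4 CPM in that library. In bulk tumours, fewer cells of a type and less RNA per cell cannot be told apart, and the part that these cells have in the differences below was not tested.

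Most tested genes differed between the models. Of 22847 genes, 5363 were called higher in 4T1 (23.5%) and 6842 lower (29.9%), which makes 53.4% in either direction (edgeR quasi-likelihood test, Benjamini-Hochberg adjusted p under 0.05). Tested against a minimum of 2-fold, 2269 were higher (9.93%) and 3293 lower (14.4%), 24.3% in all. The libraries of the models did not overlap for 4437 genes that were higher in 4T1 (19.4%) and 4320 that were lower (18.9%), 38.3% in either direction. The median log2 difference over all tested genes was -0.10. On the authors' normalized table, limma called 6451 genes higher and 5090 lower, so the share of calls that were higher was 55.9% there against 43.9%. Where a list below has no member called in a direction, none had an unadjusted p under 0.05 in that direction either, and DESeq2 and limma called none there, except 1 lipid gene that limma called higher. With so many genes called, a gene list is read below by how far its counts lie from these percentages, and each log2 difference is 4T1 minus MMTV-PYMT with its standard error (SE).

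**Figure D1:**
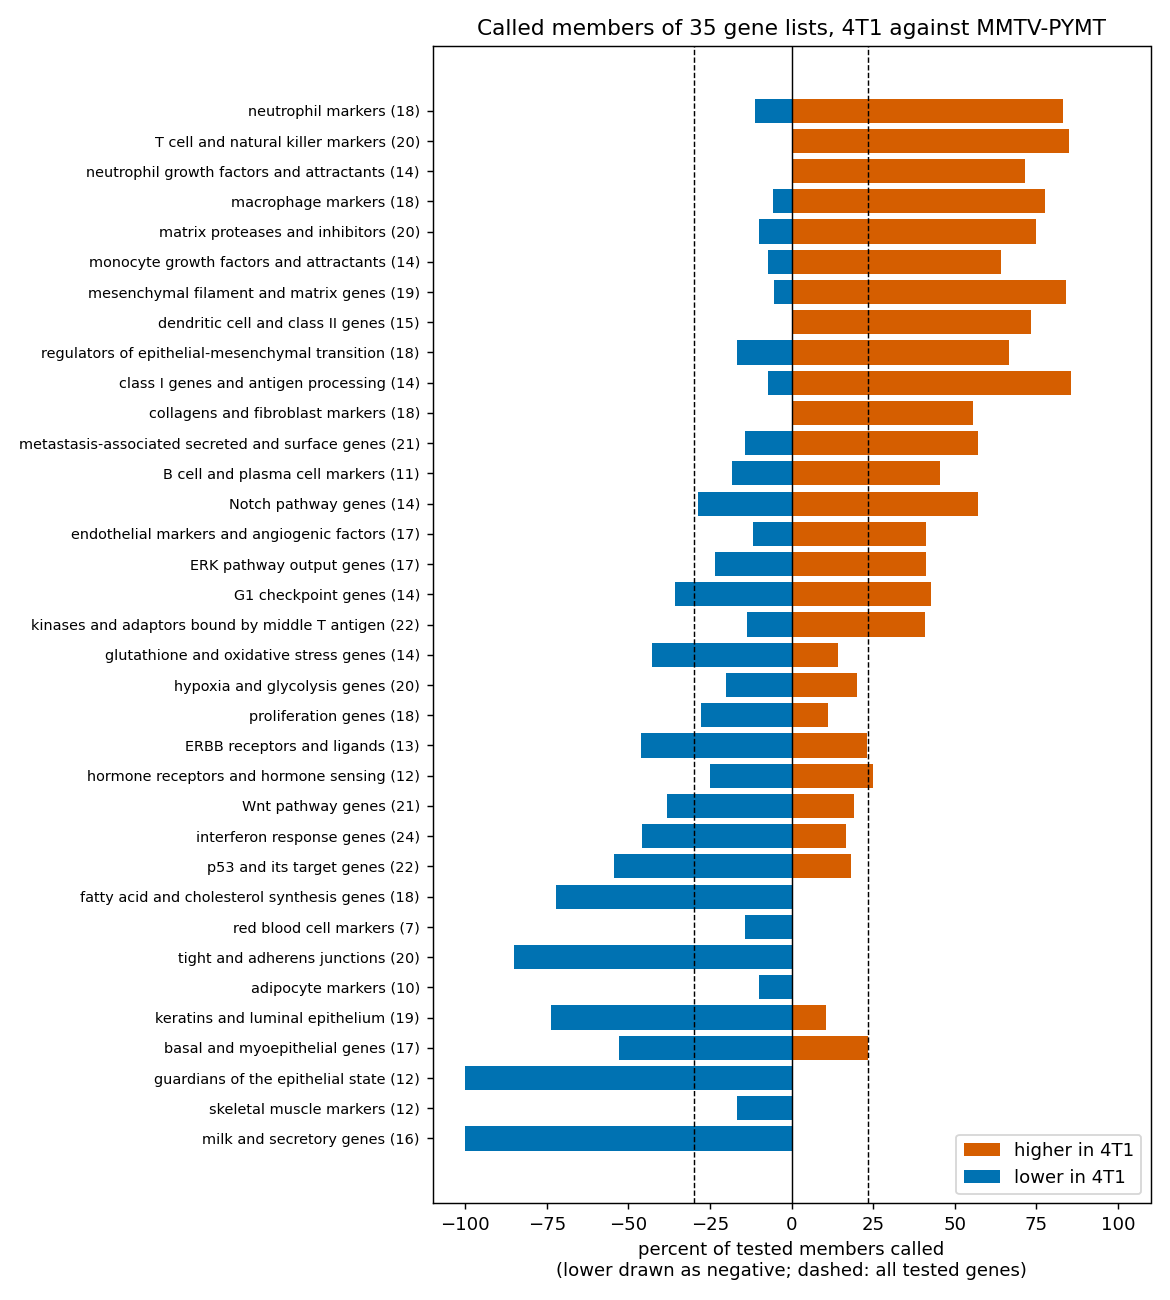
Share of the tested members of each of 35 gene lists called higher (right, positive percent) or lower (left, shown as negative percent) in 4T1 than in MMTV-PYMT tumours, 5 libraries each (edgeR, adjusted p under 0.05). The dashed lines mark the shares over all 22847 tested genes, 23.5% higher and 29.9% lower. Milk, junction and epithelial lists lie to the left, and protease, mesenchymal, T cell, neutrophil and class I lists to the right.

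Most luminal genes were lower in the 4T1 tumours, while the keratin genes Krt8 and Krt18 overlapped between the models. Of 19 luminal genes, 14 were lower in 4T1 and 2 higher, with a median log2 difference of -2.11. The largest differences were in transcription factors. Ehf, an ETS factor of epithelia, was at 0.0192, 0.0832, 0.0702, 0.647 and 0.189 CPM in the 4T1 libraries and at 658, 1340.3, 1091, 1385 and 729.6 CPM in the MMTV-PYMT libraries (log2 difference -12.39 ± 0.67, adjusted p = 1.4e-26). Elf5, the ETS factor that directs alveolar differentiation, was at 0.0288, 0, 0.0819, 0.8 and 0.0991 CPM and at 468, 801, 338, 329.9 and 619.8 CPM (-11.40 ± 0.66, adjusted p = 5.1e-25). For both factors replicate 4 was the highest of the 4T1 libraries, and every MMTV-PYMT library lay far above it. Prom1, a surface protein of luminal cells, was at 0.414 to 0.912 CPM against 31.1 to 94.5 CPM, and Spdef, a factor of secretory cells, at 0.0185 to 0.114 CPM against 3.31 to 67.1 CPM. Epcam, the common surface marker of epithelia, differed less, with 278 to 558 CPM in 4T1 and 706 to 1186 CPM in MMTV-PYMT (-1.25 ± 0.22, adjusted p = 1.2e-06). The 2 genes called higher in 4T1 were the simple keratin gene Krt7 (1.11 ± 0.45, adjusted p = 0.031), a call lost without 4T1 replicate 5 or MMTV-PYMT replicate 2 or 5 (adjusted p up to 0.084), and Areg, the EGF receptor ligand amphiregulin (2.60 ± 0.72, adjusted p = 0.0016).

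Milk and secretory genes gave the lowest list. All 16 were lower in 4T1, 15 of them beyond 2-fold, with a median log2 difference of -9.79 (-9.79 with the gene that had no read in any 4T1 library at its lower bound). Csn3, which encodes kappa-casein, was at 0.989, 1.32, 0.854, 3.92 and 1.45 CPM in the 4T1 libraries and at 8163, 17199, 22838, 17892 and 12494 CPM in the MMTV-PYMT libraries (-13.17 ± 0.88, adjusted p = 1.4e-21). Csn2, which encodes beta-casein, was at 0, 0, 0, 0.19 and 0.072 CPM and at 171, 1135, 114, 0.837 and 1008 CPM (-13.24 ± 1.40, adjusted p = 7.0e-13). The groups did not overlap for either gene and for Csn2 the MMTV-PYMT libraries spread widely, with replicate 4 the lowest and replicates 2 and 5 the highest. Csn1s2a, another casein gene, had no read in any 4T1 library and was at 22.4, 131, 16.8, 1.37 and 62.5 CPM in the MMTV-PYMT libraries, at least 7623-fold higher against a floor of 3 counts over the 5 4T1 libraries. Wap, the whey acidic protein gene, was at 0 to 0.0127 CPM in 4T1 and 4.96 to 301 CPM in MMTV-PYMT, and Lalba, which encodes alpha-lactalbumin, at 0.0702 to 0.267 and 131 to 694 CPM. In MMTV-NEU, an FVB model driven by an oncogenic receptor, the mean of Csn2 was 4456 CPM. In KPB1-A, also FVB, it was 2.97 CPM, and among the other 8 BALB/c models no mean passed 4.64 CPM.

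Casein promoters are textbook targets of the prolactin-activated factor STAT5, whose sites have the letters TTCNNNGAA, so the 250 bases before the gene start are shown for Csn2 and Csn1s1, with matches to these letters in capitals (RefSeq, GRCm38, 5′ to 3′ on the gene's strand). The Csn2 window lies on the minus strand at chr5:87699426-87699675, and the Csn1s1 window on the plus strand at chr5:87665958-87666207.
Csn2: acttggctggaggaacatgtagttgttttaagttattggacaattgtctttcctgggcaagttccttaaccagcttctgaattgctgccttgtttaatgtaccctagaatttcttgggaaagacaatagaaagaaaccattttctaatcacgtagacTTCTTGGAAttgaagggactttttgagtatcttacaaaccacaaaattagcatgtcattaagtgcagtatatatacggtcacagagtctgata
Csn1s1: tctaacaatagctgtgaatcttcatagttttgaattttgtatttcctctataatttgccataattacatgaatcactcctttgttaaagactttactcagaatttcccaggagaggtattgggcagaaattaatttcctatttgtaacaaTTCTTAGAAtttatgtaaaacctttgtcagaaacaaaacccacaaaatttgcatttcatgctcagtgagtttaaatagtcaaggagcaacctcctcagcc
The motif, which reads the same on both strands, was found in 3 of the 11 promoters listed for milk genes (27.3%) and in 7.02% of 32851 promoters of the same length. Both windows shown are among those with a match, and the windows of Wap and of the casein gene Csn1s2a held none. A match is a description of letters, not a bound site. Csn1s1 itself was at 0, 0, 0, 0.419 and 0.117 CPM in the 4T1 libraries and at 114, 434, 94.3, 23.2 and 224 CPM in the MMTV-PYMT libraries. Prlr, the prolactin receptor gene, was at 0.25, 1.57, 0.363, 1.59 and 0.937 CPM and at 101, 118, 129, 112 and 141 CPM (-7.00 ± 0.48, adjusted p = 5.5e-21), and Stat5a at 35.8 to 44.2 CPM and 69.2 to 173 CPM (-1.55 ± 0.19). Neither gene's groups overlapped.

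**Figure D2:**
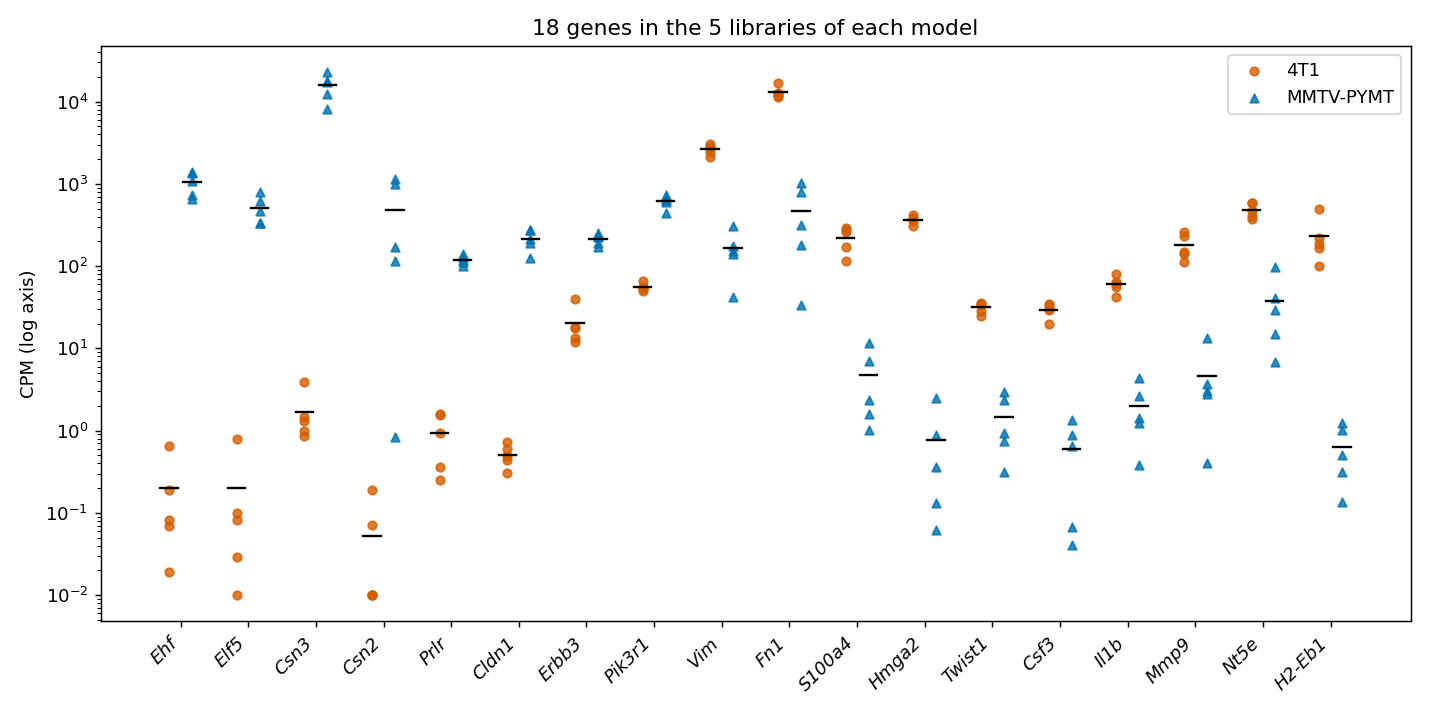
CPM on a log axis (values under 0.01 CPM drawn at 0.01) of 18 genes in each of the 5 4T1 libraries (circles) and 5 MMTV-PYMT libraries (triangles), with bars at the group means. Ehf, Elf5, Csn3, Csn2, Prlr, Cldn1, Erbb3 and Pik3r1 lie lower in every 4T1 library, and Vim, Fn1, S100a4, Hmga2, Twist1, Csf3, Il1b, Mmp9, Nt5e and H2-Eb1 lie higher.

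Genes of the junctions that seal epithelial cells together were mostly lower in 4T1. Of 20 junction genes, 17 were lower in 4T1 and none higher, with a median log2 difference of -1.83. Cldn1, the gene of the tight junction protein claudin-1, was at 0.307, 0.434, 0.725, 0.495 and 0.594 CPM in the 4T1 libraries and at 214, 191, 275, 274 and 127 CPM in the MMTV-PYMT libraries (-8.72 ± 0.44, adjusted p = 2.3e-28). Cldn8 was at 0 to 0.499 CPM against 12.1 to 34.8 CPM, the scaffold gene Tjp3 at 1.41 to 2.35 CPM against 54.2 to 78.5 CPM, and the polarity gene Crb3 at 0.571 to 3.08 CPM against 19.3 to 33.9 CPM. The claudins that mark the claudin-low class of tumours were not absent. Cldn3 was at 39.6 to 91.2 CPM in 4T1 and 139 to 606 CPM in MMTV-PYMT (-2.71 ± 0.39), Cldn7 at 21.4 to 57.6 and 99.1 to 158 CPM (-2.02 ± 0.31), and Cldn4 at 133 to 453 and 75.5 to 221 CPM with overlapping groups (0.75 ± 0.42, adjusted p = 0.13).

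All 12 genes listed as guardians of the epithelial state were lower in 4T1, 8 beyond 2-fold, with a median of -2.30. Grhl1, a grainyhead-like factor of epithelia, was at 0.442, 3.11, 1.02, 0.838 and 0.72 CPM in 4T1 and at 184, 192, 140.1, 123 and 131 CPM in MMTV-PYMT (-6.97 ± 0.48, adjusted p = 4.8e-21). Esrp1, the splicing factor that sets epithelial exons, was at 34.5 to 90 against 257 to 381 CPM (-2.54 ± 0.32), Rab25, a GTPase of epithelial recycling, at 6.91 to 36.8 against 77.8 to 134 CPM (-2.65 ± 0.32), and Ovol1 at 1.02 to 1.97 against 6.02 to 38.5 CPM (-3.57 ± 0.32). Grhl2 (-1.16 ± 0.21) and Ovol2 (-1.08 ± 0.28) were lower by about 2-fold, so the members differed in size. 4T1 replicate 2 had the highest value of the 5 for Grhl1, Esrp1, Rab25 and Cldn3.

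SNAI1 and ZEB1, which drive the transition by repressing epithelial genes, are known to bind the E-box letters CAGGTG, searched here on both strands, so the windows of 2 of these genes are shown with those letters in capitals. The Crb3 window starts from the first of 2 starts listed and lies on the plus strand at chr17:57061951-57062200, and the Rab25 window on the minus strand at chr3:88548280-88548529.
Crb3: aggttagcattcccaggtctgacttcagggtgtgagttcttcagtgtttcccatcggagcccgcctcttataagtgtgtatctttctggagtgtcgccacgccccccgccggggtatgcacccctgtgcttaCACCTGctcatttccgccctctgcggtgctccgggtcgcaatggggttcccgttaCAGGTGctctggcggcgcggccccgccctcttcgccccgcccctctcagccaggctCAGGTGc
Rab25: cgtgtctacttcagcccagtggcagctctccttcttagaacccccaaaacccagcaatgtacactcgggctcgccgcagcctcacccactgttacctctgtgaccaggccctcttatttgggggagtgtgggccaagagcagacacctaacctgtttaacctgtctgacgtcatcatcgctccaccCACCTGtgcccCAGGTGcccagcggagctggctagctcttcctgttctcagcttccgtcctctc
Crb3 holds 3 matches and Rab25 holds 2. The letters occurred in 9 of 21 junction promoters (42.9%), in 3 of 6 promoters of the guardian genes and in 17.2% of all 32851 promoters. Genes listed with 2 starts, such as Crb3, Tjp3 and Grhl1, count as 2 promoters, which can share most of their bases.

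Basal and myoepithelial genes were mixed. Of 17, 9 were lower in 4T1 and 4 higher. Krt5, the keratin of basal cells, was at 0, 0.0832, 0.281, 2.62 and 0.36 CPM in the 4T1 libraries and at 374, 8.25, 8.88, 16.2 and 107 CPM in the MMTV-PYMT libraries (-7.31 ± 1.29, adjusted p = 1.5e-06). Krt14, its usual partner, was at 37.8, 88.4, 33.5, 25.4 and 42.8 CPM and at 345, 21.5, 8.3, 11.5 and 97.5 CPM and was not called (-1.09 ± 0.78, adjusted p = 0.24). MMTV-PYMT replicate 1 was the highest of the 10 libraries for both keratins, and for Krt14 the 4T1 libraries lay inside the range of the others. Sox10, a factor of mammary progenitor and neural crest cells, was at 0.096, 0.0555, 0.129, 1.16 and 0.207 CPM in the 4T1 libraries and at 462, 608, 1044, 1114 and 782 CPM in the MMTV-PYMT libraries (-11.31 ± 0.50, adjusted p = 4.3e-31), without overlap. The members called higher in 4T1 were genes of contractile cells, Cnn1, Tagln and Acta2, which also mark smooth muscle and activated fibroblasts, and Procr.

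Hormone genes did not move as a list (3 higher and 3 lower of 12). Esr1, the oestrogen receptor gene, was at 21, 24.4, 17.6, 16.1 and 17.9 CPM in the 4T1 libraries and at 11, 1.28, 11.5, 11.3 and 12.4 CPM in the MMTV-PYMT libraries (1.03 ± 0.34, adjusted p = 0.0079), with MMTV-PYMT replicate 2 the lowest. Pgr, the progesterone receptor gene, stayed at or below 1.07 CPM in all 10 libraries and was not called.

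The mesenchymal programme was the counterpart. Of 19 filament and matrix genes, 16 were higher in 4T1 and 1 was lower, with a median log2 difference of 2.17, and of 18 regulators of the transition 12 were higher and 3 lower (median 1.77). Vim, the mesenchymal intermediate filament, was at 2458, 2132, 2821, 3074 and 2780.0 CPM in the 4T1 libraries and at 176, 42.7, 141, 154 and 310.4 CPM in the MMTV-PYMT libraries (4.01 ± 0.35, adjusted p = 2.1e-16). Fn1, the matrix glycoprotein fibronectin, was at 16854, 11735, 12229, 12674 and 11381 CPM and at 792, 33.7, 178, 317 and 1019.5 CPM (4.79 ± 0.65, adjusted p = 2.5e-09). In both genes the lowest MMTV-PYMT value was that of replicate 2, which also had the lowest summed level of fibroblast genes. S100a4, a calcium-binding protein tied to motility, was at 170.4, 115, 261, 293 and 273 CPM and at 7.09, 1.03, 2.35, 1.59 and 11.5 CPM (5.55 ± 0.69), and the receptor kinase gene Axl at 668 to 823 and 16.6 to 93.4 CPM (3.95 ± 0.32). Cdh2, which encodes the N-cadherin that often replaces E-cadherin in this transition, went the other way and was low in both models, 1.17 to 1.66 CPM against 0.83 to 11.2 CPM (-1.66 ± 0.43, adjusted p = 6.6e-04).

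Among the regulators, Hmga2, a chromatin protein of embryonic and invasive cells, was at 371, 309, 423, 384 and 357 CPM in the 4T1 libraries and at 2.47, 0.875, 0.131, 0.0612 and 0.361 CPM in the MMTV-PYMT libraries (8.87 ± 0.54, adjusted p = 7.0e-24). Twist1 was at 28.1, 25, 33.3, 35.9 and 34.8 CPM and at 2.95, 0.314, 0.757, 0.939 and 2.38 CPM (4.40 ± 0.44, adjusted p = 9.8e-14). Foxc2 was at 23.4 to 38.1 against 0.247 to 0.824 CPM (5.82 ± 0.37), Snai1 at 32.2 to 50.7 against 2.29 to 17.8 CPM (2.21 ± 0.45), and Zeb1 at 15.3 to 21.3 against 3.39 to 14.6 CPM (1.10 ± 0.34). For these 5 genes no 4T1 library overlapped an MMTV-PYMT library. The members called lower were Tgfb2 (6.32 to 11 against 82.4 to 146 CPM, -3.78 ± 0.27), Sox9 (-1.97 ± 0.37) and Snai2 (-1.26 ± 0.41), the last with overlapping groups and not called without MMTV-PYMT replicate 1 (adjusted p = 0.21). Among the other 11 models the highest mean of Hmga2 was 523 CPM, in T12.

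Stromal genes moved in the same direction. Of 18 collagen and fibroblast genes 10 were higher in 4T1 and none lower (median 1.33). Col1a1, the main fibrillar collagen gene, was at 2845, 1849, 2325, 1911 and 2170.0 CPM in the 4T1 libraries and at 760.5, 36.8, 498, 178 and 954 CPM in the MMTV-PYMT libraries (2.19 ± 0.64, adjusted p = 0.0029). Pdgfra, a receptor of fibroblasts, was at 127 to 166 against 1.19 to 40.9 CPM (2.97 ± 0.43), while Col3a1 was not called (1.34 ± 0.71, adjusted p = 0.11) unless MMTV-PYMT replicate 5 was left out (2.27, adjusted p = 0.011). Whether the mesenchymal genes came from tumour cells or from fibroblasts was not tested.

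Genes of matrix breakdown were among the lists with the most calls. Of 20 proteases and inhibitors 15 were higher in 4T1 and 2 lower (median 2.27). Mmp9, the gelatinase made by tumour and myeloid cells, was at 149.8, 231, 141, 114 and 263 CPM in the 4T1 libraries and at 13.3, 0.404, 3.68, 3.04 and 2.76 CPM in the MMTV-PYMT libraries (5.27 ± 0.82, adjusted p = 9.7e-08). Plau, the urokinase that activates plasminogen, was at 151, 195, 163, 142 and 164 CPM and at 24.9, 12.6, 10, 20.8 and 12.3 CPM (3.34 ± 0.23, adjusted p = 5.7e-21). Mmp11, or stromelysin 3, was at 63.1 to 82.2 against 1.03 to 7.88 CPM (4.03 ± 0.39). The inhibitor gene Timp3 was called lower in 4T1 (26.5 to 47.2 against 25.2 to 182 CPM, -1.67 ± 0.39) with overlapping groups, as was the protease gene Adamts1 (-1.59 ± 0.44), whose call was lost without MMTV-PYMT replicate 4 (adjusted p = 0.18).

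Mmp3, Mmp10 and Mmp13 lie near each other on chromosome 9 and are textbook targets of AP-1, whose sites have the letters TGANTCA. Mmp3 was at 74.2, 91, 105, 98.8 and 86.2 CPM in the 4T1 libraries and at 18.3, 0.0449, 2.72, 0.98 and 10.9 CPM in the MMTV-PYMT libraries (3.79 ± 1.02, adjusted p = 0.0012). Mmp10 was at 5.49, 48.8, 26.6, 17.2 and 29.4 CPM and at 2.4, 0.179, 0.966, 0.735 and 0.0645 CPM (4.88 ± 0.91, adjusted p = 5.1e-06). Mmp13 was at 28.8, 309, 125, 53.7 and 103 CPM and at 29.9, 1.95, 8.25, 16.3 and 2.56 CPM (3.40 ± 0.78, adjusted p = 1.5e-04). For Mmp13 the lowest 4T1 value fell below the highest MMTV-PYMT value, and 4T1 replicate 2 was the highest for Mmp10 and Mmp13. Their windows are on the plus strand at chr9:7445572-7445821 (Mmp3), chr9:7502092-7502341 (Mmp10) and chr9:7272264-7272513 (Mmp13), with AP-1-type letters in capitals.
Mmp3: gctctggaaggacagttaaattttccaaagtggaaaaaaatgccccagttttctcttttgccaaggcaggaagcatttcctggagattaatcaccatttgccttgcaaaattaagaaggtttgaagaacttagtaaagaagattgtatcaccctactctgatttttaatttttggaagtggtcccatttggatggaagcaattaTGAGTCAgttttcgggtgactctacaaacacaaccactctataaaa
Mmp10: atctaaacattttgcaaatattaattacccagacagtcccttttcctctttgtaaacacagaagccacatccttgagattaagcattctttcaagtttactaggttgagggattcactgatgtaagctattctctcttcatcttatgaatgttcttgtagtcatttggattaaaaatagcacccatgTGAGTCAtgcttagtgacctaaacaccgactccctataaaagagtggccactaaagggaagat
Mmp13: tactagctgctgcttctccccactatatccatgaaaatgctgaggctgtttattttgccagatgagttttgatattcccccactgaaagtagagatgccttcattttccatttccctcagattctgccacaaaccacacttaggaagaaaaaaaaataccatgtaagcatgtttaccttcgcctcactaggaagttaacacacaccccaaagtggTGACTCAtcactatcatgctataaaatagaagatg
Each window holds 1 match, which begins 46 bases before the start in Mmp3, 63 in Mmp10 and 35 in Mmp13. The letters, the same on both strands, were found in 7 of 16 protease promoters (43.8%) and in 6.75% of all promoters. Serpinb2 and Mmp12 were each counted with 2 starts. Fosl1, which encodes an AP-1 subunit, was at 43.8, 28.8, 76.6, 80.3 and 78.7 CPM in the 4T1 libraries and at 6.54, 8.68, 3.45, 17.5 and 3.21 CPM in the MMTV-PYMT libraries (2.97 ± 0.46, adjusted p = 8.0e-08).

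Of 21 secreted and surface genes linked to metastasis, 12 were higher in 4T1 and 3 lower (median 1.28). Nt5e, the surface enzyme CD73 that makes adenosine, was at 588, 378, 587, 463 and 408 CPM in the 4T1 libraries and at 29.6, 6.91, 40.9, 96.7 and 14.9 CPM in the MMTV-PYMT libraries (3.68 ± 0.44, adjusted p = 3.9e-11). Vcam1, an adhesion molecule, was at 111 to 174 against 3.25 to 27.5 CPM (3.44 ± 0.45), Pthlh, the bone-resorbing hormone PTHrP, at 11.3 to 29.4 against 0.444 to 3.48 CPM (3.53 ± 0.69), and Cd274, the checkpoint ligand PD-L1, at 18.1 to 53.2 against 2.05 to 6.95 CPM (2.63 ± 0.53). Spp1, or osteopontin, was not called, with 4475 to 8713 and 103 to 4703 CPM (1.28 ± 0.79, adjusted p = 0.17). Lcn2, an iron-scavenging protein of epithelia and neutrophils, was lower in 4T1, 346 to 757 against 2753 to 8749.8 CPM (-3.47 ± 0.39, adjusted p = 5.5e-12), as was the adhesion gene L1cam (-2.32 ± 0.35).

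Factors that raise and attract neutrophils were higher in the 4T1 tumours. Of 14 tested, 10 were higher and none lower (median 2.84). Csf3, which encodes G-CSF, was at 19.8, 33.3, 29.8, 29.1 and 34.3 CPM in the 4T1 libraries and at 1.36, 0.0673, 0.653, 0.0408 and 0.878 CPM in the MMTV-PYMT libraries (5.59 ± 0.72, adjusted p = 4.6e-10). Il1b was at 56, 81.1, 63.6, 42.4 and 60.1 CPM and at 4.33, 0.381, 1.44, 1.25 and 2.62 CPM (4.91 ± 0.53, adjusted p = 1.7e-12). Both genes separated the models without overlap. Il23a was at 34.5 to 42.3 against 0.47 to 1.82 CPM (5.05 ± 0.59), Cxcl2 at 3.41 to 10.3 against 0.219 to 0.653 CPM (3.76 ± 0.62) and Cxcl1 at 5.73 to 26.3 against 2.39 to 7.55 CPM (1.65 ± 0.41) with overlap.

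Most neutrophil markers were higher in 4T1, although their summed level was not. Of 18 markers 15 were higher in 4T1 and 2 lower (median 3.30). S100a9, an abundant protein of neutrophils, was at 25.1, 75.9, 34.4, 47.2 and 57.5 CPM in the 4T1 libraries and at 12.1, 0.247, 0.366, 0.571 and 0.542 CPM in the MMTV-PYMT libraries (4.12 ± 0.77, adjusted p = 5.4e-06), but its partner S100a8 was at 12.7, 34.5, 19.4, 24.7 and 30.4 CPM and at 101, 18.4, 3.55, 10.8 and 20.2 CPM and was not called (-0.34 ± 0.59, adjusted p = 0.65). The receptor genes Csf3r (17.7 to 30.6 against 0.65 to 8.74 CPM, 2.67 ± 0.43) and Cxcr2 (3.99 to 8.59 against 0.224 to 1.5 CPM, 3.10 ± 0.57) did not overlap. The 2 members called lower, Lcn2 and Ltf, which encodes lactoferrin (1.65 to 3.11 against 867 to 3564 CPM, -9.58 ± 1.18), are also made by secretory epithelium, and with them the summed level was 957.8 to 1310 CPM in 4T1 and up to 12330 CPM in MMTV-PYMT, whose lowest library, replicate 1, lay above each 4T1 library. Padi4, the enzyme that citrullinates histones in neutrophils, was at 483, 339, 478, 447 and 443 CPM in 4T1 and at 41.7, 4.71, 5.27, 1.96 and 11.4 CPM in MMTV-PYMT (5.07 ± 0.47, adjusted p = 4.8e-15). No other model had a mean Padi4 above 38.3 CPM, although the 2153 model exceeded 4T1 in S100a9, Csf3r and Cxcr2, with means of 82.3, 41.9 and 16.6 CPM.

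Macrophage genes and monocyte attractants were higher in 4T1 as well. Of 18 macrophage genes 14 were higher and 1 lower (median 2.39), and of 14 monocyte growth factors and attractants 9 were higher and 1 lower (median 2.22). Csf1r, the receptor of macrophage colony-stimulating factor, was at 434, 237, 347, 253 and 324 CPM in the 4T1 libraries and at 61.6, 22.4, 43, 39.5 and 102 CPM in the MMTV-PYMT libraries (2.57 ± 0.48, adjusted p = 4.3e-06). Msr1, a scavenger receptor, was at 122 to 209 against 6.08 to 13.5 CPM (4.23 ± 0.48), and Ccr2, the receptor that draws monocytes into tissue, at 37.5 to 122 against 0.184 to 8.7 CPM (4.79 ± 0.90). Csf1, the ligand of Csf1r, was at 170.2 to 322 against 52.6 to 140.2 CPM (1.63 ± 0.27) and Ccl2 at 13 to 27 against 2.23 to 6.8 CPM (2.17 ± 0.54). The exception among macrophage genes was Cd14 (-1.21 ± 0.50, adjusted p = 0.036), whose call was lost when any 1 library other than MMTV-PYMT replicate 2 or 3 was left out (adjusted p up to 0.12), and among attractants Egf (-4.70 ± 0.53), which is a growth factor of epithelia too.

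T cell and natural killer genes were higher in 4T1 from low levels. Of 20, 17 were higher and none lower (median 2.90). Cd3e was at 0.576, 0.721, 4.05, 1.14 and 1.18 CPM in the 4T1 libraries and at 0.46, 0.0449, 0.235, 0.592 and 0.491 CPM in the MMTV-PYMT libraries (2.05 ± 0.86, adjusted p = 0.038), and Cd8a at 0.701, 1.04, 5.63, 0.901 and 0.558 and 0.326, 0.0897, 0.418, 0.204 and 0.516 CPM (2.49 ± 0.96, adjusted p = 0.023). 4T1 replicate 3 was the highest for both, and without it Cd3e had an adjusted p of 0.2, Cd8a one of 0.22, and 11 of the 20 genes were called. Neither was called without MMTV-PYMT replicate 2, and Cd3e was not without replicate 3. Prf1, the pore-forming protein of killer cells, was at 16.2, 12.5, 19.4, 38.7 and 14.2 CPM and at 0.0575, 0, 0.0522, 0.102 and 0.116 CPM (8.16 ± 1.0, adjusted p = 1.1e-10), and here replicate 4 was the highest.

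The granzyme cluster on chromosome 14 was high in 4T1. All 6 tested genes from Gzme to Gzmb (chr14:56117626-56262260, mm10) were higher in 4T1 beyond 2-fold without overlap. Gzmg was at 68.2, 59.5, 81.2, 207 and 78.4 CPM in the 4T1 libraries and at 0.288, 0, 0, 0 and 0 CPM in the MMTV-PYMT libraries. Gzmf was at 62 to 189.7 against 0 to 0.46 CPM and Gzmd at 52.7 to 147 against 0 to 0.671 CPM. The means of the other 11 models reached at most 2.07 CPM for Gzmg. Granzymes C to G are near-identical copies, so how the reads were split among them is uncertain. Gzmb, the granzyme of cytotoxic T cells, differed less, 6.48 to 25.1 against 0.583 to 2.01 CPM (3.64 ± 0.97). Ncr1, a receptor of natural killer cells, was at no more than 1.9 CPM in any 4T1 library. Mcpt2, a mast cell protease gene on the same chromosome, was at 8.33, 5.69, 16.5, 12.5 and 10.3 CPM in 4T1 and had no read in MMTV-PYMT, at least 929.9-fold higher against a floor of 3 counts over the 5 MMTV-PYMT libraries.

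Antigen presentation genes were higher in 4T1 in both classes. Of 14 class I genes 12 were higher and 1 lower (median 1.36), and of 15 dendritic cell and class II genes 11 were higher and none lower (median 1.95). B2m, the light chain of class I molecules, was at 1187 to 2021 against 379 to 957 CPM (1.17 ± 0.36, adjusted p = 0.005), and Nlrc5, the activator of class I genes, at 92.5, 109.6, 143, 85.8 and 86.5 CPM in 4T1 and at 18, 14.4, 11.8, 14.9 and 3.71 CPM in MMTV-PYMT (3.04 ± 0.36, adjusted p = 3.5e-11). H2-Ab1, a class II chain, was at 153 to 675 against 3.25 to 122 CPM (2.77 ± 0.75). The member called lower was Calr, the chaperone calreticulin (-1.16 ± 0.17).

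One class II molecule followed the strain. H2-Eb1 was at 166, 188, 498, 99.3 and 220.1 CPM in the 4T1 libraries and at 1.02, 0.135, 0.313, 0.51 and 1.23 CPM in the MMTV-PYMT libraries (8.45 ± 1.06, adjusted p = 2.1e-10). The other FVB models, MMTV-NEU and KPB1-A, had means of 0.903 and 0.713 CPM, and the lowest mean of the other BALB/c models was 16.1 CPM. The row named H2-Ea-ps, the annotation's symbol for the E alpha locus, showed the same split, 41.8 to 205 against 0 to 0.62 CPM. As background, FVB mice carry the q haplotype of these genes and are known not to make the E molecule. The effect of strain sequence on mapping to mm10, which is C57BL/6, was not tested.

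Interferon-induced genes were the immune list that leaned the other way. Of 24, 11 were lower in 4T1 and 4 higher (median -0.80), and no member called lower separated the models without overlap. Ifit1 was at 13.4, 29.1, 22.1, 11.2 and 15.4 CPM in the 4T1 libraries and at 44.1, 206, 113, 147 and 3.63 CPM in the MMTV-PYMT libraries (-2.49 ± 0.61, adjusted p = 4.1e-04). Rsad2, or viperin, was at 9.75, 18.7, 14.9, 6.18 and 10.8 CPM and at 69.2, 772, 203, 79.4 and 3.64 CPM (-4.22 ± 0.70, adjusted p = 4.4e-07). MMTV-PYMT replicate 5 lay below every 4T1 library in both genes and the other 4 lay above them. Without replicate 5, 13 of 24 were called lower and 2 higher. Without replicate 2, the highest for both genes, only 8 were called lower and 4 higher, so the lean of the list depended in part on that library. The 4 higher members were Cxcl9, Cxcl10, Gbp2 and Bst2, of which the chemokine gene Cxcl9, induced mainly by interferon gamma, was at 8.77, 11.3, 114, 16.5 and 15.2 CPM in 4T1 and at 1.59, 3.59, 1.91, 3.73 and 0.852 CPM in MMTV-PYMT (3.83 ± 1.02, adjusted p = 0.0011), with 4T1 replicate 3 the highest.

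Endothelial genes differed modestly, 7 higher and 2 lower of 17 (median 0.42). Eng, a coreceptor of TGF-beta on endothelium, was at 169 to 204 against 9.11 to 54.2 CPM (2.46 ± 0.32), and Pecam1 at 70.1 to 112 against 16.6 to 74.2 CPM with overlap (0.91 ± 0.37, adjusted p = 0.033). The call of Pecam1 was lost without 4T1 replicate 2 or MMTV-PYMT replicate 2, 3 or 4 (adjusted p up to 0.13), and without either replicate 2 the list had 4 members higher. Kdr, the main VEGF receptor gene, was not called (0.09 ± 0.36, adjusted p = 0.86).

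Host genes of the proteins that middle T antigen engages did not move as a list. Of 22, 9 were higher in 4T1, none of them beyond 2-fold, 3 were lower, all beyond 2-fold, and 10 were not called. Pik3r1, the regulatory p85 alpha subunit of phosphoinositide 3-kinase, had the largest difference, at 52.3, 65.3, 55.3, 49.7 and 54.2 CPM in the 4T1 libraries and at 656, 446, 645, 739.9 and 601 CPM in the MMTV-PYMT libraries (-3.48 ± 0.23, adjusted p = 2.8e-22). MMTV-NEU had a mean of 609 CPM, within the range of the MMTV-PYMT libraries, and KPB1-A, the third FVB model, one of 98.9 CPM. Src, the kinase that middle T binds, was not called, at 107 to 123 and 94 to 152 CPM (-0.12 ± 0.13). Gab1 (-1.55 ± 0.17) and Pik3cb (-1.28 ± 0.16) were lower in 4T1, and Shc1 (1.17 ± 0.10) and Akt1 (1.14 ± 0.12) higher, each without overlap between the groups.

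Receptors of the ERBB family were lower in 4T1 except for Erbb2. Erbb3 was at 17.9, 39.7, 13.3, 11.8 and 18 CPM in the 4T1 libraries and at 235, 256, 226, 172 and 193 CPM in the MMTV-PYMT libraries (-3.42 ± 0.24, adjusted p = 6.8e-21). Egfr was at 13.4 to 17.4 against 54.9 to 179 CPM (-2.66 ± 0.29) and Erbb4 at 0 to 0.0254 against 1.67 to 10 CPM (-8.94 ± 0.85). Erbb2 was not called, with 68.8 to 111 and 64.5 to 111 CPM (0.06 ± 0.17, adjusted p = 0.79). The ligands split: Areg, Hbegf (2.18 ± 0.34) and Tgfa (1.64 ± 0.34) were higher in 4T1, and Egf and Btc (-3.71 ± 0.40) lower.

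ERK output genes also split, 7 higher and 4 lower of 17 (median 0.32). Spry1, a feedback inhibitor, was at 247, 297, 207, 219.6 and 229 CPM in the 4T1 libraries and at 17.4, 30.7, 37.9, 43.7 and 19.1 CPM in the MMTV-PYMT libraries (3.01 ± 0.21, adjusted p = 1.3e-20). Etv4 (2.25 ± 0.23), Dusp6 (1.34 ± 0.23) and Fosl1 were higher too, and Phlda1 (-2.40 ± 0.31), Egr1 (-2.02 ± 0.42), Dusp5 (-1.09 ± 0.29) and Etv5 (-0.96 ± 0.20) lower.

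Wnt genes were called in both directions, 4 higher in 4T1 and 8 lower of 21. Of 14 Notch genes 8 were higher in 4T1 (5 without MMTV-PYMT replicate 2) and 4 lower, with a median log2 difference of 0.73. Wnt7b, a ligand, was at 380.2, 202, 325, 389 and 330.1 CPM in the 4T1 libraries and at 10.5, 1.66, 11.3, 18.9 and 8.84 CPM in the MMTV-PYMT libraries (4.99 ± 0.52, adjusted p = 2.7e-13). Axin2, a target gene of beta-catenin, was at 3.41, 2.67, 2.81, 2.73 and 3.8 CPM and at 108, 123, 1.23, 1.49 and 7.07 CPM (-3.96 ± 0.64, adjusted p = 2.1e-07). MMTV-PYMT replicates 1 and 2 were high, while replicates 3 and 4 lay below every 4T1 library. With replicates 3 to 5 alone the log2 difference was -0.10 (adjusted p = 0.9). Among Notch genes, Hey1, a target, was at 1.5 to 4.3 against 9.64 to 213 CPM (-5.63 ± 0.46), and Lfng, which modifies the receptors, at 40.8 to 55.5 against 2.45 to 12.6 CPM (2.84 ± 0.32).

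Genes of the p53 pathway were mostly lower in 4T1, 12 of 22 against 4 higher (median -0.82). Trp53 itself was at 64.2, 71.6, 65.7, 67.9 and 74.3 CPM in the 4T1 libraries and at 142, 77.7, 125, 136 and 109 CPM in the MMTV-PYMT libraries (-0.78 ± 0.21, adjusted p = 0.0014). Cdkn1a, which encodes p21, was at 29.1 to 37.6 against 49.4 to 155 CPM (-1.43 ± 0.34), and Psrc1 at 3.35 to 4.61 against 29.6 to 71.1 CPM (-3.80 ± 0.29). Mdm2 was not called (-0.10 ± 0.13), and Pmaip1, the death gene Noxa, was higher (1.75 ± 0.31).

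Genes of the G1 phase split, 6 higher and 5 lower of 14. Cdkn2a, which encodes p16 and p19ARF, was at 0.336, 0.25, 0.269, 0.267 and 0.252 CPM in the 4T1 libraries and at 0.997, 10.9, 0.548, 12.4 and 4.78 CPM in the MMTV-PYMT libraries (-4.42 ± 0.51, adjusted p = 1.6e-11). Its neighbour Cdkn2b, or p15, was at 0.979, 0.675, 0.936, 1.47 and 1.29 CPM and at 14.2, 7.65, 3.03, 29.3 and 2.58 CPM (-3.41 ± 0.42, adjusted p = 1.0e-10). On the other side of Cdkn2a lies Mtap, an enzyme that recycles methionine, which went the other way, at 759.7, 658, 607, 649 and 639.9 CPM and at 46.5, 54.5, 29, 61.3 and 29.3 CPM (3.91 ± 0.18, adjusted p = 5.1e-31). These genes lie within chr4:89137122-89311039, and none of the 3 overlapped between the models. For Cdkn2a the other 8 BALB/c models had means from 37.1 to 197 CPM, while E0771, the C57BL/6 model, was as low as 4T1 at 0.217 CPM. For Mtap no other model's mean passed 108 CPM. Rb1, the retinoblastoma gene, was at 16.9 to 22.8 against 43.5 to 152 CPM (-2.17 ± 0.28). Cdkn2c, another inhibitor of cyclin D kinases, was higher in 4T1, 69.3 to 119.7 against 17.5 to 33.9 CPM (1.84 ± 0.22), and Ccnd1, which encodes cyclin D1, at 1165, 849, 1113, 1058 and 1053 CPM in 4T1 and at 249, 130.4, 292, 691 and 232 CPM in MMTV-PYMT (1.72 ± 0.26, adjusted p = 5.3e-08).

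**Figure D3:**
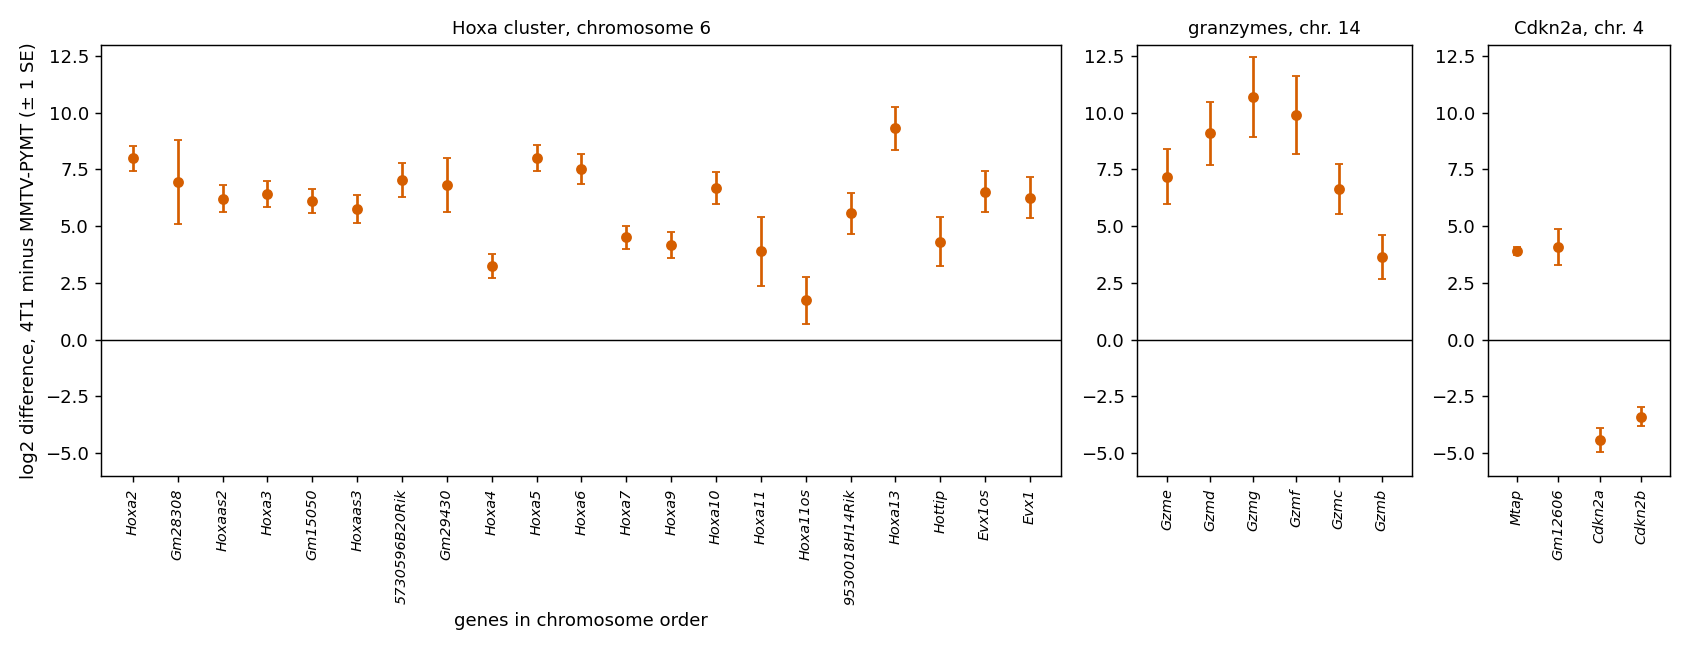
Log2 difference (4T1 minus MMTV-PYMT, error bars 1 SE) of the tested genes in order along the Hoxa cluster on chromosome 6 (from Hoxa2 to Evx1), the granzyme cluster on chromosome 14 and the segment from Mtap to Cdkn2b on chromosome 4. Hoxa genes and granzymes lie above 0 in a run, while Mtap and Gm12606 lie above 0 and Cdkn2a and Cdkn2b lie below it.

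Proliferation and hypoxia genes showed no common direction. Of 18 proliferation genes 2 were higher in 4T1 and 5 lower (median -0.27), and of 20 hypoxia and glycolysis genes 4 were higher and 4 lower, or 2 higher and 7 lower without MMTV-PYMT replicate 5. Mki67 was at 195, 155, 232, 233 and 210.4 CPM in the 4T1 libraries and at 613, 633, 334, 241 and 407 CPM in the MMTV-PYMT libraries (-1.12 ± 0.25, adjusted p = 9.9e-05), whereas Top2a was higher in 4T1 (0.52 ± 0.21, adjusted p = 0.028), a call lost without 4T1 replicate 4 or MMTV-PYMT replicate 3, 4 or 5 (adjusted p up to 0.14). Car9, a carbonic anhydrase induced by low oxygen, was at 75.1 to 154 against 5.62 to 96 CPM (1.55 ± 0.59, adjusted p = 0.023), a call lost without MMTV-PYMT replicate 1 or 5 (adjusted p up to 0.077), and Car12, its membrane-bound relative, at 24.6 to 36.1 against 263 to 589 CPM (-3.81 ± 0.39).

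Of 18 fatty acid and cholesterol synthesis genes 13 were lower in 4T1, 6 of them beyond 2-fold, none was higher and 5 were not called (median -0.97). Scd1, the desaturase that makes oleate, was at 55.4, 38.3, 46.5, 93.8 and 35.5 CPM in the 4T1 libraries and at 791, 3819, 2596, 320.4 and 2994 CPM in the MMTV-PYMT libraries (-5.29 ± 0.45, adjusted p = 9.1e-17). Thrsp, a lipogenic protein of fat, liver and lactating gland, was at 0.154, 0.0462, 0.164, 0.406 and 0.0991 CPM and at 169, 941, 205, 16.6 and 521 CPM (-11.10 ± 0.75, adjusted p = 2.3e-21). MMTV-PYMT replicate 4 was the lowest of its group for both. Fasn differed less and overlapped (-1.63 ± 0.23). Replicate 2, the highest for both, had a summed adipocyte level of 32.93 CPM, and replicate 5 one of 790.1 CPM. Among 14 glutathione and oxidative stress genes, 2 were higher and 6 lower. Slc7a11, the cystine transporter, was higher (35 to 135 against 1.88 to 7.36 CPM, 3.86 ± 0.43) and Nqo1 lower (2.89 to 3.94 against 3.88 to 34 CPM, -2.60 ± 0.50).

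Several of the largest differences in favour of MMTV-PYMT over all genes varied widely among its libraries. Scgb2b27, a secretoglobin, had no read in any 4T1 library and was at 10.6, 1392, 39.6, 24.4 and 45.6 CPM in the MMTV-PYMT libraries, a mean at least 49174-fold above the floor of 4T1. Car6, a secreted carbonic anhydrase of saliva and milk, was at 45.7, 2958, 455, 18 and 213 CPM, and Muc4, a membrane mucin, at 309, 805, 3.06, 0.531 and 193 CPM, against at most 0.102 and 0.0889 CPM in 4T1. Replicate 2 was the highest for all 3. Mup5, a major urinary protein gene, rested on it almost entirely, with 0.0192, 124, 0.548, 0.245 and 0.0645 CPM. Timd2, a cell-surface ferritin receptor, was steadier, 27.2, 36.1, 40.9, 18 and 35.1 CPM in MMTV-PYMT and no read in 4T1.

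In favour of 4T1, Hhip, Msln, Gata4 and Fcrl6 were among the 15 largest differences, beside Hmga2, Mcpt2 and granzyme genes given above. Hhip, a membrane protein that binds and restrains hedgehog ligands, was at 149, 61.8, 86.3, 85.2 and 80.1 CPM in the 4T1 libraries and at 0.0575, 0, 0, 0 and 0.129 CPM in the MMTV-PYMT libraries (10.93 ± 0.89, adjusted p = 2.8e-17). Msln, the surface protein mesothelin, was at 72, 32.1, 44, 49.9 and 49.4 CPM and at 0.0959, 0.0673, 0.0522, 0.0408 and 0.0387 CPM (9.68 ± 1.0, adjusted p = 2.5e-13). Both were higher in 4T1 than in each other model, whose means reached 18.4 and 15.7 CPM. Gata4, a factor of heart and gonad development, had no read in any MMTV-PYMT library and was at 5.33, 4.62, 5.84, 6.25 and 6.05 CPM in 4T1, at least 489.7-fold above the MMTV-PYMT floor. Fcrl6, a receptor of cytotoxic lymphocytes, was at 4.36 to 16.6 CPM in 4T1 with no read in MMTV-PYMT, and 4T1 replicate 4 was the highest, as for the granzymes and Prf1.

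Along the chromosomes, windows of 25 neighbouring tested genes showed where called genes cluster. The highest medians lay over the Hoxa cluster, homeobox genes that set position along the body. Of 21 tested genes from Hoxa2 to Evx1 (chr6:52162417-52318378, mm10) 20 were higher in 4T1, 19 beyond 2-fold, with a median of 6.26. Hoxa5 was at 100.5, 82.8, 91.2, 103 and 100.04 CPM in the 4T1 libraries and at 0.23, 0.157, 0.235, 0.225 and 0.917 CPM in the MMTV-PYMT libraries (8.01 ± 0.59, adjusted p = 7.0e-20). Hoxa10 was at 30.9 to 34.6 against 0 to 0.614 CPM and Hoxa3 at 38.9 to 56.4 against 0.135 to 1.43 CPM. Hibadh, beyond the end of the cluster, was at 50.6 to 61.9 and 42.1 to 65.4 CPM and not called (0.04 ± 0.15). For Hoxa5 the other 11 models had means from 0.26 CPM (E0771) to 18 CPM (2208), with MMTV-NEU at 2.51 and KPB1-A at 11.9 CPM. Many transcripts of this cluster overlap on opposite strands, and strand use in counting is not given in the sources used here.

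The lowest windows lay over keratin and skin barrier genes, where 1 library was far above the others. Of 45 tested genes from Krt39 to Krt35 (chr11:99514114-100096241), which hold hair keratins and their associated proteins, 39 were called lower in 4T1. Their CPM summed to 1254 in MMTV-PYMT replicate 1, to between 2.872 and 5.854 in the other 4 MMTV-PYMT libraries, and to between 1.673 and 2.948 in the 4T1 libraries. Without replicate 1, 2 of 41 genes were called lower. The late cornified envelope genes and their neighbours from Ivl to Flg (chr3:92570902-93293686) went from 27 of 30 called lower (median log2 difference -7.97) to 8 of 30 without it (median -3.81). Of 10 tested genes from Krt81 to Krt5 (chr15:101459061-101712898), 9 were called lower, 3 of them without overlap, and 5 without replicate 1 (median -3.60), and their CPM summed to 1070.0 in replicate 1, 107.8 in replicate 5, 9.244 to 17.36 in the other 3 MMTV-PYMT libraries and at most 2.793 in 4T1. In total 104 genes were at 20 CPM or more in replicate 1 and over 8-fold above each other MMTV-PYMT library, 42 of them keratin or keratin-associated genes, against 27 such genes in replicate 5, 13 in replicate 2, 8 in replicate 4, 2 in replicate 3 and none in any 4T1 library.

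The end of chromosome 11 divided the MMTV-PYMT libraries among themselves. The segment chr11:113649169-121716306 held 137 genes with a mean of at least 5 CPM in MMTV-PYMT, which were used here. Over them, the median log2 difference of a library from the other 4 was 1.72 in replicate 3 and 0.87 in replicate 4. It was -0.78, -0.67 and -0.36 in replicates 1, 2 and 5. The same measure stayed between -0.05 and 0.04 in the 4T1 libraries. In 4T1 minus MMTV-PYMT, 88 of these genes were lower and 10 higher (median -0.72), against 29.9% lower and 23.5% higher over all tested genes. The minimum was set on MMTV-PYMT alone, so genes low there and higher in 4T1 were left out in advance. Without MMTV-PYMT replicate 3, 53 of the 137 were lower (median -0.24). Birc5, a survival and mitosis gene in this segment, was at 76.3, 73.1, 224, 76.4 and 63.8 CPM in the MMTV-PYMT libraries and 37 to 74.5 CPM in 4T1 (-0.87 ± 0.27, adjusted p = 0.0045), and was not called without replicate 3 (adjusted p = 0.22). Among genes expressed in both models the highest window lay on chromosome 9, from Arhgap32 to Tbrg1 (chr9:32116136-37657312), where 22 of 25 genes were higher in 4T1 and 2 lower, with a median of 1.15. DNA copy number was not measured here.

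**Figure D4:**
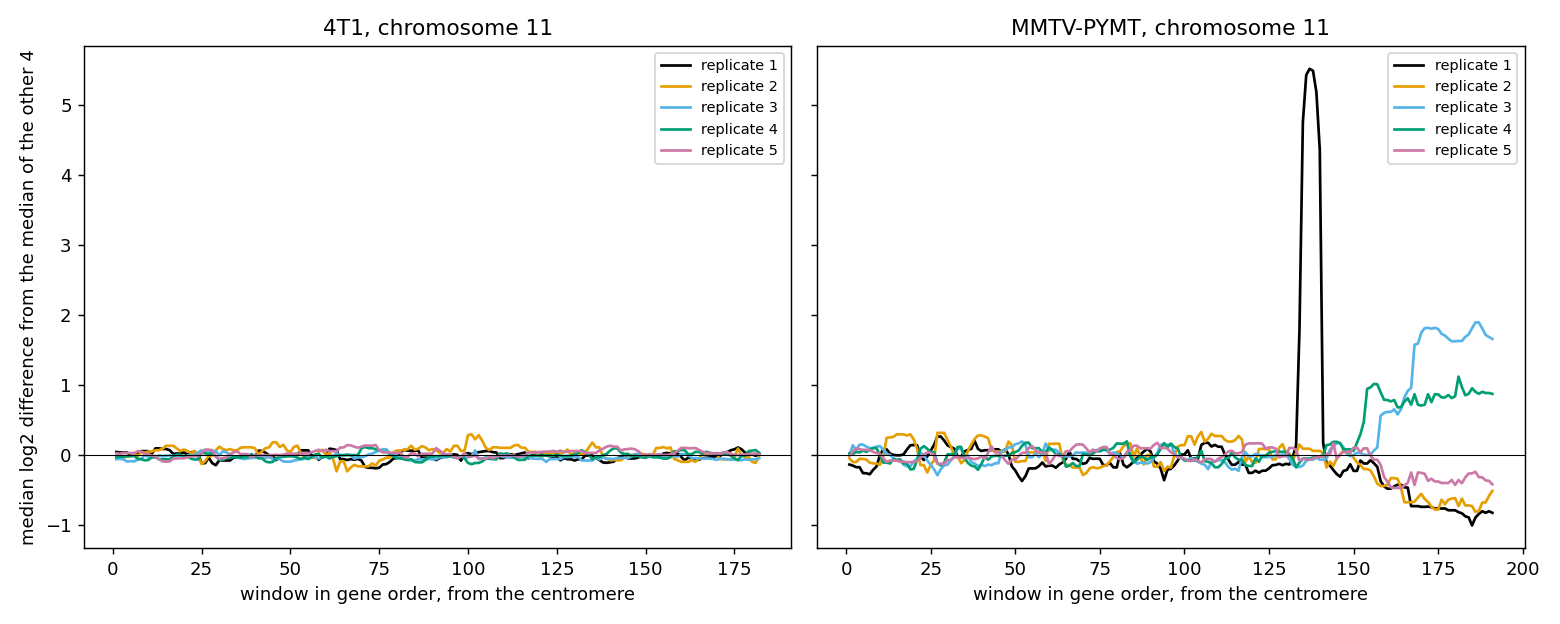
Median log2 difference of each library from the median of the other 4 of its model, in windows of 25 expressed genes along chromosome 11 (x axis, window order from the centromere, no unit). MMTV-PYMT replicates 3 and 4 rise above 0 over the last windows, replicate 1 peaks over the keratin genes, and the 5 4T1 libraries stay near 0.

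The strain split could be described, not removed. Of the 2269 genes higher in 4T1 beyond 2-fold, 231 (10.2%) had means in all 9 BALB/c models above those in all 3 FVB models, and of the 3293 lower ones 308 (9.35%) had the reverse order, against 2.19% and 2.62% of all tested genes. Since the calls use 1 model of each strain in that order, a higher share among them follows in part from the choice. Examples, of which H2-Ea-ps above, Ifi203 and Col11a1 were chosen after their values were seen, are H2-Eb1 and the interferon-inducible gene Ifi203 (mean 254 CPM in 4T1, at least 10.8 CPM in the other BALB/c models and at most 8.01 CPM in the other FVB models against 6.57 CPM in MMTV-PYMT), and, in the other direction, Col11a1, a fibrillar collagen gene (3.62 CPM in 4T1, at most 100.3 CPM in the other BALB/c models and 532 CPM in MMTV-PYMT). Prf1 had this order by a narrow margin, since its lowest other BALB/c mean was 0.121 CPM and its highest other FVB mean 0.114 CPM, against 20.2 CPM in 4T1. When each model was first set against the mean of the other models of its strain, fewer of these genes were called beyond 2-fold. Of the 2269 higher genes 1092, and of the 3293 lower ones 1264, were still called beyond 2-fold in the same direction. Without the 2-fold minimum (adjusted p under 0.05) these counts were 1655 and 1880, and the sign turned in 90 and 198. That contrast left 10 of 16 milk genes lower, 4 of 18 fibroblast genes higher and 8 of 18 neutrophil genes higher with 3 lower, and of 18 proliferation genes it called 11 lower and none higher. In all, 13 of 35 list counts moved by over 1.5 times in it. The other 9 were the B cell, endothelial, middle T partner, G1 and Notch members called higher (1, 3, 5, 3 and 4, against 5, 7, 9, 6 and 8) and the oxidative stress, adipocyte, muscle and red blood cell members called lower (3, 0, 0 and 0, against 6, 1, 2 and 1). It also turned the sign of Epcam and Ovol2, neither of them called in it (0.42 and 0.05), and gave 3.31 for Erbb2, the oncogene that MMTV-NEU carries as a transgene. Of the genes with values in the text, 31 others lost their call in it, while 128 kept their sign and stayed called or uncalled. Those that lost it include Snai1 (0.09), Zeb1 (0.70), Grhl2 (-0.04), Col1a1 (0.81), Csn2 (-5.66) and Csn1s1 (-2.38). Twist1 (2.67), Hmga2 (4.93) and Csn3 (-8.12) kept theirs. Csn1s1 had a mean of 0 CPM in T12, 1 of the BALB/c models averaged. Where a model has no reads its log mean has no lower limit, and such a gene can stay uncalled whatever its difference. The counts of calls in this contrast, milk genes included, hold such genes, so a lost call there is no measure of strain. In 709 of the higher and 450 of the lower genes 4T1 was the extreme of all 13 models, and in 336 and 694 MMTV-PYMT was.

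**Figure D5:**
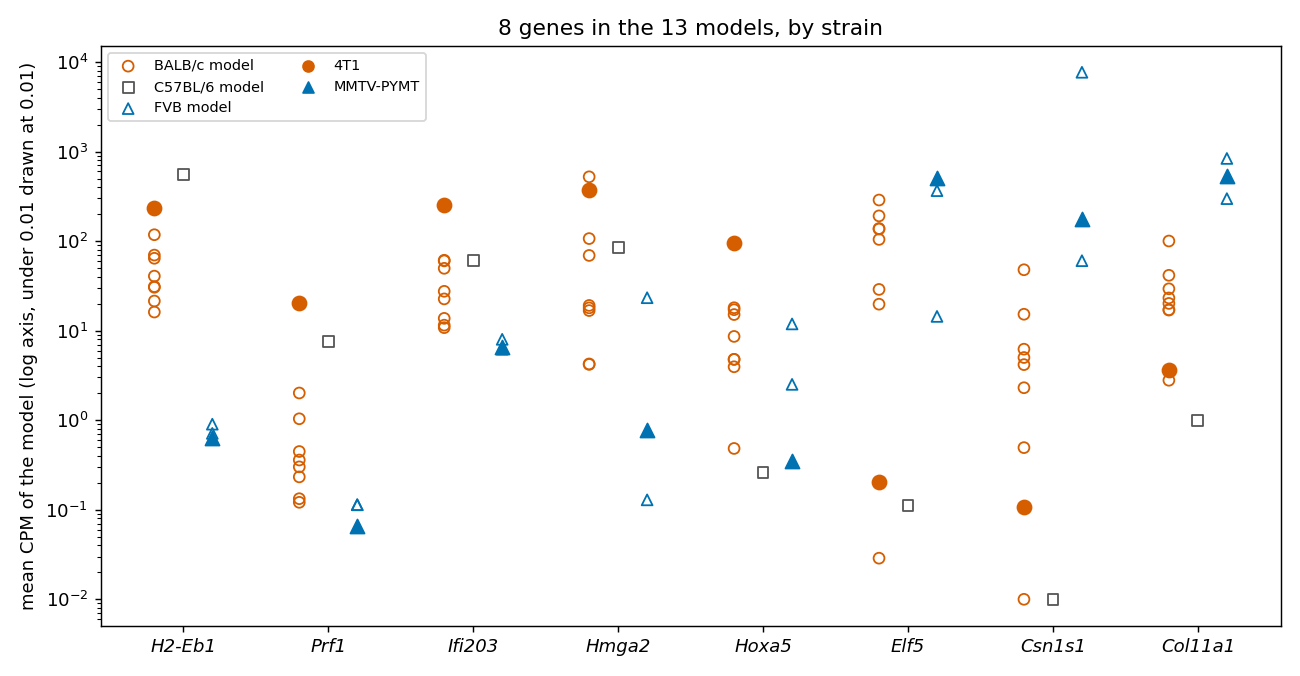
Mean CPM of each of the 13 models (log axis, means under 0.01 drawn at 0.01) for 8 genes, with the 9 BALB/c models, the 3 FVB models and the C57BL/6 model in separate symbols, 4T1 and MMTV-PYMT filled. H2-Eb1 separates the FVB from the BALB/c models, whereas Elf5 and Hoxa5 of 4T1 and MMTV-PYMT lie at or near the ends of the range with other models of both strains between them.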

How the data were processed

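Bulk mRNA sequencing of 82 mouse mammary tumour libraries was deposited as a table of expected counts per gene, which the authors made with STAR, SAMtools, Picard and Salmon on build mm10, per the submitters' processing notes, with no versions or roles. The authors also deposited a normalized table (here called signal). Its values equal the counts scaled so that each library's percentile 75, taken over genes above 0, becomes 1000, with 1 in place of 0.

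Expected counts were rounded and analysed with edgeR 4.0.16 (R 4.3.3): genes passed filterByExpr (minimum count 10, total 15), libraries were scaled by TMM, and a quasi-likelihood fit with 1 mean per model over all 82 libraries gave 4T1 minus MMTV-PYMT. Calls used a Benjamini-Hochberg adjusted p under 0.05, and a second test (glmTreat) a minimum of 2-fold. Where no read was counted, folds use a floor of 3 counts over the group. In simulated counts for this comparison (22847 genes), 69% of genes changed 2-fold and 94.5% of those changed 4-fold were called, against 0.245% of unchanged genes. The changed genes were drawn only from those averaging at least 1 CPM over the 2 models, so these shares do not cover genes at lower levels. The unchanged genes had no such minimum. The simulation gave each gene the same spread in all libraries, as the fit assumes, whereas MMTV-PYMT libraries varied more than 4T1 libraries. Its shares therefore do not cover calls that rest on 1 library.

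Members and lists were chosen with earlier results of these data known. Genes named were drawn from the first 3 of each list. Also covered were up to 4 further called members with the largest differences each way (mean of at least 5 CPM in the higher model). The choice further held the 15 largest differences each way over all genes with no overlap and the 8 largest each way from 50 CPM. Tested genes of described chromosome windows were covered too. H2-Ea-ps, Ifi203, Col11a1 and Hibadh were added after their values were seen. Many genes covered by this choice were left out of the text, among them first members of some lists, such as Adgre1 and Isg15. The text gives values for 167 genes. Gene positions are from GENCODE M21 (mm10), and promoters from RefSeq (GRCm38.p6). The alternatives, among them DESeq2 1.42.0 and limma 3.58.1 on log2 of the normalized table without a pseudocount, are in the closing section. The other 11 models enter the fit and the strain description only.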

Additional observations from a re-analysis of the deposited data

Results flagged for a closer look

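Each gene with values in the report was screened in the 5 libraries of each model for a library whose CPM lay far from the others (gap to the nearest library above 0.71 of the group's range, Dixon's 95% value for 5 samples). This met 59 of 327 groups, where chance gives about 1 in 20, and genes that move together are not separate cases. No explanation was tested.

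4T1 replicate 1 stood above the other 4 for Cdkn2a at 0.336 CPM, Fn1 at 16854 CPM, Hhip at 149 CPM, Pdgfra at 166 CPM and Tgfa at 142 CPM. 4T1 replicate 2 stood above the other 4 for Btc at 1.04 CPM, Cldn8 at 0.499 CPM, Crb3 at 3.08 CPM, Erbb3 at 39.7 CPM, Grhl1 at 3.11 CPM, Krt14 at 88.4 CPM and Lfng at 55.5 CPM. It also stood above them for Ltf at 3.11 CPM, Ovol2 at 2.39 CPM, Rab25 at 36.8 CPM and Slc7a11 at 135 CPM. 4T1 replicate 2 stood below them for L1cam at 3.33 CPM and Padi4 at 339 CPM. 4T1 replicate 3 stood above the other 4 for Cd274 at 53.2 CPM, Cd3e at 4.05 CPM, Cd8a at 5.63 CPM and Cxcl9 at 114 CPM. 4T1 replicate 4 stood above the other 4 for Adipoq at 5.28 CPM, Csn1s1 at 0.419 CPM, Csn3 at 3.92 CPM, Ehf at 0.647 CPM, Elf5 at 0.80 CPM, Fcrl6 at 16.6 CPM and Gzmd at 147 CPM. It also stood above them for Gzmf at 189.7 CPM, Gzmg at 207 CPM, Krt5 at 2.62 CPM, Prf1 at 38.7 CPM, Sox10 at 1.16 CPM, Spdef at 0.114 CPM and Wap at 0.0127 CPM. No such gene was found for 4T1 replicate 5.

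MMTV-PYMT replicate 1 stood above the other 4 for Gzmd at 0.671 CPM, Gzmf at 0.46 CPM, Gzmg at 0.288 CPM, Krt14 at 345 CPM, Krt5 at 374 CPM, Mmp9 at 13.3 CPM and Padi4 at 41.7 CPM. It also stood above them for S100a8 at 101 CPM and S100a9 at 12.1 CPM. MMTV-PYMT replicate 2 stood above the other 4 for Car6 at 2958 CPM, Egf at 46.4 CPM, Mup5 at 124 CPM, Rsad2 at 772 CPM, Scgb2b27 at 1392 CPM, Spdef at 67.1 CPM and Wap at 301 CPM. MMTV-PYMT replicate 2 stood below them for Esr1 at 1.28 CPM. MMTV-PYMT replicate 3 stood above the other 4 for Birc5 at 224 CPM. MMTV-PYMT replicate 4 stood above the other 4 for Ccnd1 at 691 CPM and Ltf at 3564 CPM. MMTV-PYMT replicate 5 stood above the other 4 for Adipoq at 40.4 CPM, Hoxa3 at 1.43 CPM and Hoxa5 at 0.917 CPM.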

How the results depend on the processing

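Of 22847 genes tested, 12205 were called and 5562 beyond 2-fold. Other scalings, no filter, the 10 libraries alone, thinned counts, MMTV-PYMT library numbers above 3600, DESeq2, limma, and the fit without MMTV-PYMT replicates 3 and 5 (chosen after seeing the data) gave 10014 to 12493 called, and 3928 to 5736 beyond 2-fold, except that the 10 libraries alone gave fewer beyond 2-fold, though within 1.5 times of 5562. Without each replicate in turn they were 11626 to 11837 and 5244 to 5492. With each model set against the others of its strain, 9176 were called and 3109 beyond 2-fold, which changes the contrast itself. Of the 153 called genes with values in the text, 113 kept their direction and call under every alternative, and 141 under every one but the strain-centred one. Epcam (0.42) and Ovol2 (0.046) were called lower and turned there without a call. Another 31 genes lost their call there without turning, among them Csn1s1, which that contrast could not test, as T12 had no read of it. That contrast also called 6 genes that were not called in 4T1 minus MMTV-PYMT with all libraries: Erbb2 (3.31), Krt18 (1.27), Pgr (2.83), S100a8 (-1.91), Src (-0.75) and Mdm2 (-0.62). Krt18 was also called in the edgeR test without MMTV-PYMT replicate 2 (adjusted p = 0.042). The other log2 differences that turned were of uncalled genes, and the cause was not tested. With MMTV-PYMT library numbers above 3600 these were Erbb2 (-0.091), Kdr (-0.048), Krt14 (0.22), Pgr (-0.031) and S100a8 (1.08). With limma they were Adipoq (0.48), Krt14 (0.31), Mdm2 (0.059), S100a8 (0.58) and Src (0.044), and without replicates 3 and 5 Adipoq (1.25) and Src (0.014). Leaving out 1 replicate gave -3.97 to 1.56 for Adipoq, -0.062 to 0.21 for Erbb2, -0.032 to 0.12 for Hibadh, -0.096 to 0.21 for Kdr, -1.47 to 0.42 for Krt14 and -0.63 to 0.90 for S100a8. Of 700 list counts, 63 moved by over 1.5 times. No paired analysis was possible because the titles give library numbers that the models do not share.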
